A study of Mus musculus with 40 samples.

Results

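The 10 genes described here make and cross-link collagen: the lysyl oxidases Lox, Loxl1, Loxl2, Loxl3 and Loxl4, the lysyl hydroxylases Plod1, Plod2 and Plod3, and the catalytic subunits P4ha1 and P4ha2 of collagen prolyl 4-hydroxylase. They were taken by symbol, after the Ensembl identifiers of the deposited count table had been mapped to mouse gene symbols, and were 10 of the 51789 genes in that table. The rule names genes and uses no measured value, though the genes were chosen with earlier results of these data known.

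Collagen chains are modified inside the cell before they are secreted and outside it afterwards. In the endoplasmic reticulum, prolyl 4-hydroxylases and lysyl hydroxylases add hydroxyl groups to prolines, which stabilises the triple helix, and to lysines, which sets the sites for sugar attachment and for cross-links. These enzymes need iron, oxygen and 2-oxoglutarate, and several of their genes are known to be induced in low oxygen. In the matrix, the copper-dependent lysyl oxidases then oxidise lysines and hydroxylysines, and the products join neighbouring collagen and elastin molecules into a stiffer network.

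RNA was measured by QuantSeq, which reads the 3′ ends of polyadenylated transcripts, in 40 libraries of cultured mouse melanoma cells, 2 for each of 20 groups. B16-F10 cells, a pigmented melanoma line, were either control (Ctrl) or Bmal1 knockout (KO), the study using a clone of each kind. YUMM2.1 and YUMM1.7 are related lines from mouse melanomas. The aC3 cells were 1 Bmal1-null CRISPR clone of YUMM2.1. The aC3, YUMM2.1 and YUMM1.7 cells each carried an empty lentiviral vector (EV), wild-type Bmal1 (WT-Bmal1) or dHLH-Bmal1, a form without the basic helix-loop-helix domain that binds DNA. YUMM2.1 and YUMM1.7 kept their own Bmal1 under these constructs, whereas aC3 had none of its own. The remaining 18 libraries were YUMM2.1 cells holding 1 of these 3 vectors that also carried a scramble hairpin (shNC) or 1 of 2 hairpins against Myh9, the heavy chain of non-muscle myosin IIA (shMyh9#2 and shMyh9#4). The study describes its duplicates as biological replicates for B16-F10, YUMM2.1, YUMM1.7 and several hairpin groups, and which step was repeated is not given in the sources used here. The p-values measure the spread between these libraries.

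Libraries held between 3643332 and 22970049 counts, with a median of 10021164.5. The unit of level is CPM, here counts divided by the library total times its TMM factor, a correction for composition fitted over all 40 libraries, the value of each of the 2 libraries being stated. Differences are log2 fold changes from edgeR's quasi-likelihood test. Their standard error (SE) was computed as the absolute log2 fold change divided by the square root of that test's F statistic. A gene was called where this test's p, adjusted by Benjamini and Hochberg over all genes tested, was under 0.05. Against the study's own table of normalised counts, 6 of 8 columns matched the deposited library of the same name, and 2 matched each other's, namely YUMM2.1 EV replicate 2 and YUMM2.1 WT-Bmal1 replicate 1. The members' results that rest on these 2 libraries were therefore also computed with their labels exchanged and with both left out. Reads of Arntl, which encodes Bmal1, did not separate the B16-F10 KO libraries (13.3 and 11.5 CPM) from Ctrl (15.2 and 10.7 CPM), and a 3′ tag outside the edited part checks nothing. With dHLH-Bmal1, Arntl reads rose in YUMM2.1 (log2 1.54, edgeR adjusted p 0.0095) and YUMM1.7 (log2 1.05, edgeR adjusted p 0.014). With WT-Bmal1 they were at log2 0.10 in YUMM2.1 (edgeR adjusted p 1) and fell in aC3 (log2 -0.83, edgeR adjusted p 0.0036). The library pair labelled aC3 EV, from the Bmal1-null clone, had more Arntl reads than YUMM2.1 EV, 33.1 and 30.5 against 15.9 and 13.9 CPM (log2 1.08, edgeR adjusted p 0.021). All 7 melanocytic markers exceeded 1 CPM in B16-F10, whereas Dct, Tyrp1 and Mlana were at 0 in all YUMM2.1, aC3 and YUMM1.7 libraries without a hairpin. In bulk libraries, fewer cells of a type and less RNA per cell cannot be told apart.

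Of the 10 genes, 9 were measurable in at least 1 group and Lox was not. Lox, the founding lysyl oxidase (chr18:52516067-52529867, minus strand, GRCm38), had 11 counts among the 432689122 counts of all 40 libraries. It was at 0 in 33 libraries and never exceeded 3 counts, the floor below which no level was read. It passed no expression filter and entered no test.

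Loxl1, a lysyl oxidase of elastic fibres (chr9:58287738-58313186, minus strand), was read at a high level in YUMM1.7 and at a low level elsewhere. Its CPM in YUMM1.7 was 186 and 170 in EV cells, 169 and 167 in WT-Bmal1 cells, and 183 and 173 in dHLH-Bmal1 cells. The 34 other libraries ranged from 0 to 1.95 CPM, so YUMM1.7 did not overlap any other group.

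Loxl2, known for cross-linking basement membrane collagen (chr14:69609068-69695834, plus strand), ranged from a group mean of 3.76 CPM in YUMM1.7 WT-Bmal1 to 73.1 CPM in YUMM2.1 dHLH-Bmal1, 19.5-fold apart. Loxl3 (chr6:83034173-83052562, plus strand), a lysyl oxidase whose loss in mice causes cleft palate, ranged from 22.3 CPM in the dHLH-Bmal1 shMyh9#4 cells to 74.7 CPM in YUMM1.7 dHLH-Bmal1. Loxl4 (chr19:42593982-42612813, minus strand) was the sparsest of the measurable genes, from 0 in B16-F10 KO to 4.09 CPM in the dHLH-Bmal1 shNC cells, with at most 54 counts in a library. Loxl2 and Loxl3 share exon positions with genes on the opposite strand (Gm27177 and Htra2), and whether the counting used strand is not given in the sources used here.

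Among the lysyl hydroxylases, Plod2 varied most. Plod1 (chr4:147909753-147936767, minus strand), which hydroxylates lysines of the triple helix, ranged from 39.97 CPM in aC3 EV to 84.4 CPM in the dHLH-Bmal1 shMyh9#4 cells. Plod2 (chr9:92542223-92608428, plus strand), which hydroxylates the lysines of the chain ends and so favours stable cross-links, ranged 5.91-fold, from 43.2 CPM in YUMM1.7 dHLH-Bmal1 to 255 CPM in YUMM2.1 dHLH-Bmal1. Plod3 (chr5:136987019-136996648, plus strand), which also adds sugars to hydroxylysine, ranged only from 27.5 CPM in B16-F10 Ctrl to 60.8 CPM in the dHLH-Bmal1 shNC cells. Plod2 and Plod3 overlap exons on the opposite strand as well (Gm38391 and Znhit1).

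The prolyl hydroxylase subunits differed in the same way. P4ha1 (chr10:59323296-59373304, plus strand), the main catalytic subunit of most cells, ranged 3.20-fold, from 33.3 CPM in B16-F10 KO to 106 CPM in YUMM2.1 dHLH-Bmal1. P4ha2 (chr11:54100095-54131665, plus strand), the second catalytic subunit, ranged 5.36-fold, from 14.5 CPM in YUMM1.7 WT-Bmal1 to 78.0 CPM in YUMM2.1 dHLH-Bmal1. For each gene, the plot of all libraries shows which neighbouring groups overlap.

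**Figure D1:**
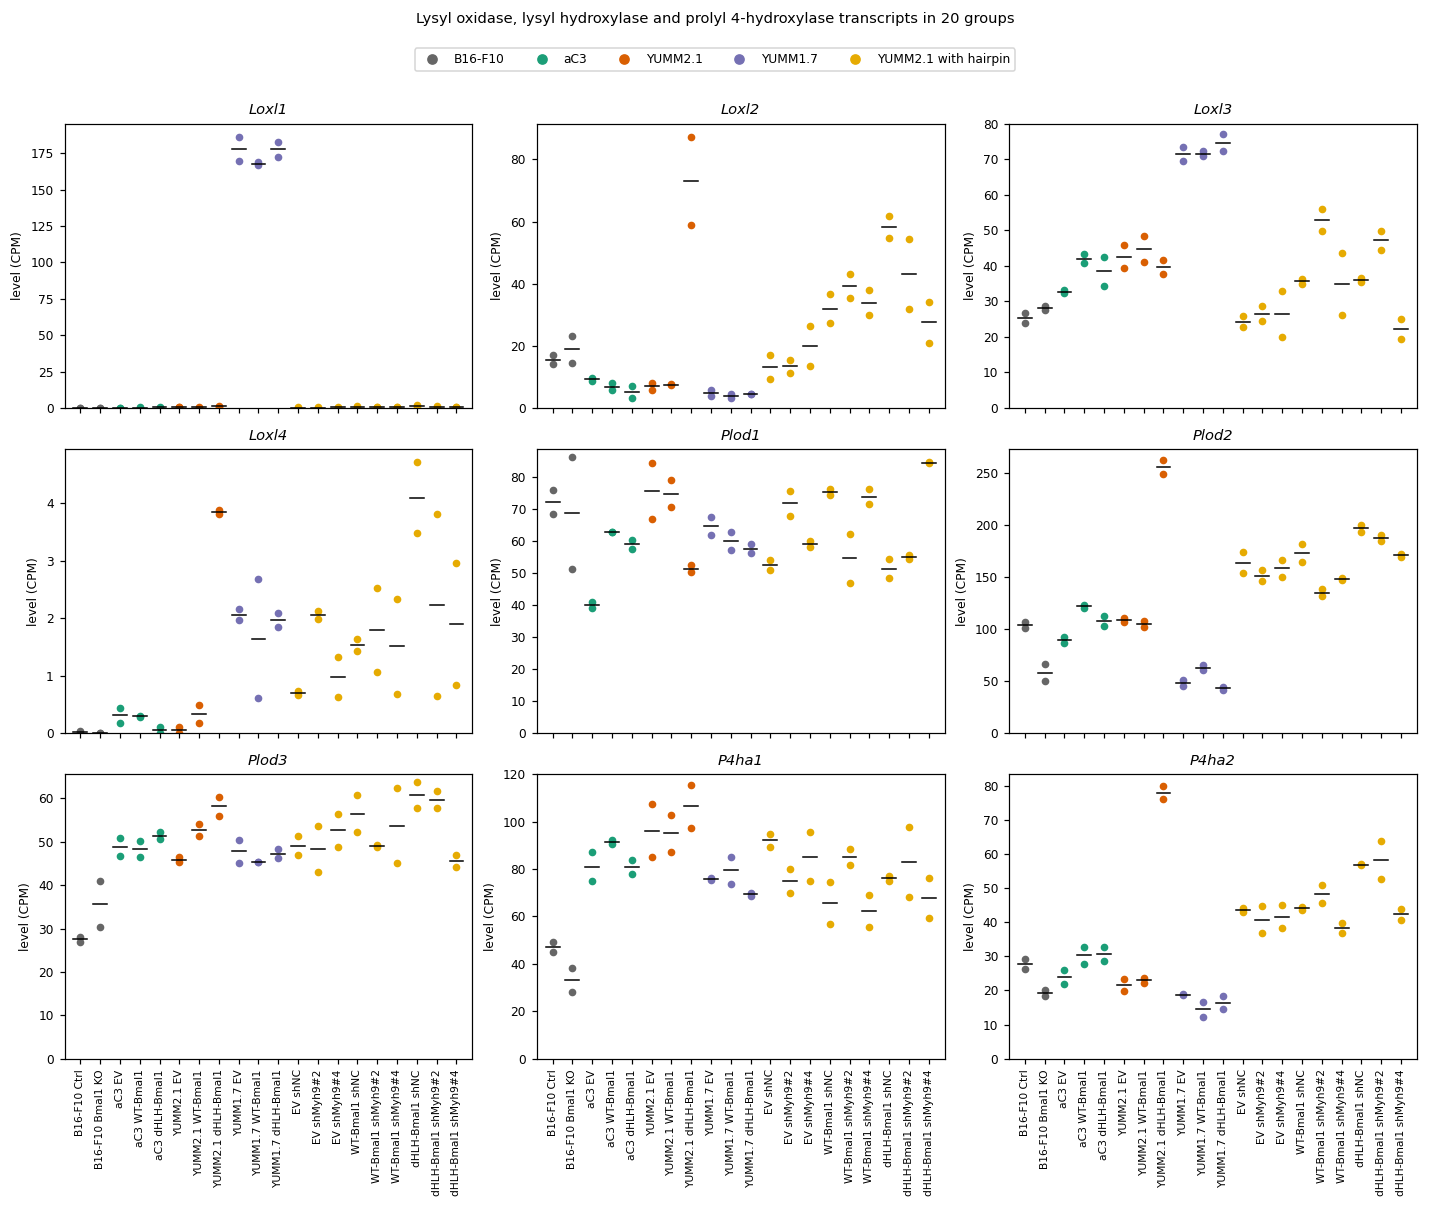
Level in CPM (vertical axes, linear) of the 9 measurable genes in the 20 groups, with each of the 2 libraries as a point and the group mean as a bar. Loxl1 stands at 167 to 186 CPM in the 6 YUMM1.7 libraries and under 2 CPM elsewhere, while Loxl2, Plod2 and P4ha2 have their highest group mean in YUMM2.1 dHLH-Bmal1.

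Promoters of 5 of the 10 genes were present in the RefSeq sequences used here (GRCm38.p6, 250 bases before to 50 after the start), and 3 are printed because Loxl4 and P4ha2 rose with dHLH-Bmal1 in YUMM2.1 while P4ha1 was not called there. Capitals mark ACGTG on either strand, letters held by the E-box CACGTG, which Clock-Bmal1 binds, and by a form of the hypoxia response element. Other forms of that element were not searched.
P4ha2 (at its RefSeq start, inside the gene span given above), chr11:54100674-54100973, plus strand: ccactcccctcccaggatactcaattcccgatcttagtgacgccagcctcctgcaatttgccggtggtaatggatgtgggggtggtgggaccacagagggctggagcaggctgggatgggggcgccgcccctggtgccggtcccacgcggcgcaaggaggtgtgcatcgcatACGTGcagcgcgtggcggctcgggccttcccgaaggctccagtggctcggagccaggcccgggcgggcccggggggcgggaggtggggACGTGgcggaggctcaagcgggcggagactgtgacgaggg
P4ha1, chr10:59323046-59323345, plus strand: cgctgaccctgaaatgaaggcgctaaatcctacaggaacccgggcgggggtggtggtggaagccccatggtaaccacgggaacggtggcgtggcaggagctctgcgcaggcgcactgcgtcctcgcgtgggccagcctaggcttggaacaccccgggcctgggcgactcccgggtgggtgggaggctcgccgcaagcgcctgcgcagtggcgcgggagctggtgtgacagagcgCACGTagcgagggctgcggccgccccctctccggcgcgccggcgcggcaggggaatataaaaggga
Loxl4, chr19:42612757-42613056, minus strand: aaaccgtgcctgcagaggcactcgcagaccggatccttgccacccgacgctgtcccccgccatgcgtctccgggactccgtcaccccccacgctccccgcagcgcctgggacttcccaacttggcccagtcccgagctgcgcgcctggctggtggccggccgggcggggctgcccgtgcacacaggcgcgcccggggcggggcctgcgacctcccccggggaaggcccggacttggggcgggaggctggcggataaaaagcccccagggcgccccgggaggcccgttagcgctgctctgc
ACGTG was found at 2 positions in P4ha2, 78 bases before and 10 bases after the start, at 1 position in P4ha1, 16 bases before the start, and nowhere in Loxl4. The 2 promoters not printed held it 54 bases before the start in Plod3 and not at all in Plod1. Of 32851 RefSeq promoters of this length, 19.6% held ACGTG. None of the 5 promoters held the whole E-box CACGTG (7.15% of all promoters), the AP-1 letters TGANTCA (7.81%) or a CArG box (1.63%), each searched on both strands. These are matches of letters and not measured binding sites.

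The lines with unmodified or empty-vector cells differed from YUMM2.1 EV in partly different members. Loxl3 was called in both YUMM1.7 EV (higher) and B16-F10 Ctrl (lower). Since the 3 comparisons share the YUMM2.1 EV libraries, their counts are not independent of each other. In YUMM1.7 EV, 4 of 9 tested members were called, against 37.1% of all genes tested. Of these, Loxl1 and Loxl4 passed the expression filter only through their YUMM1.7 libraries, so their part in this count carries no weight. Loxl1 was at 186 and 170 CPM there and at 0.332 and 0.323 CPM in YUMM2.1 EV, where it rested on 7 counts. The ratio was 543, with an exact 95% interval of 263 to 1351 that covers counting error only. Plod2 was lower in YUMM1.7 EV, at 45.1 and 51.0 CPM against 111 and 106 CPM (log2 -1.19, SE 0.10, edgeR adjusted p 1.2e-05). Loxl3 was higher, at 69.6 and 73.4 against 39.3 and 45.8 CPM (log2 0.74, SE 0.12, edgeR adjusted p 0.0011). Loxl4 had 45 counts in YUMM1.7 EV and 1 count in YUMM2.1 EV, a ratio of 43.8 with an exact 95% counting interval of 7.47 to 1768. For these 4 genes the 2 groups did not overlap, and all 4 were called in the same direction with the labels of the doubtful libraries exchanged (log2 -1.16 for Plod2 and 0.82 for Loxl3) and with both left out (log2 -1.22 and 0.85). P4ha1 was at 75.4 and 76.5 CPM in YUMM1.7 EV and at 107 and 85.2 CPM in YUMM2.1 EV (log2 -0.35, edgeR adjusted p 0.055), and was called lower with the labels exchanged (log2 -0.48) and with both doubtful libraries left out (log2 -0.51). Without YUMM2.1 EV replicate 1, Loxl2 and Plod1 were called lower in YUMM1.7 EV (log2 -0.80 and -0.39). Fibroblast markers, 5 genes, summed to between 101 and 122 CPM in the YUMM1.7 libraries and to at most 6.91 CPM in all others. Pdgfra, Dcn and Fap exceeded 1 CPM in YUMM1.7, where Thy1 was at 0. The part of these markers in the Loxl1 difference was not tested.

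B16-F10 Ctrl differed from YUMM2.1 EV in 4 of 9 tested members, against 54.3% of all genes. P4ha1 was at 49.4 and 45.1 CPM in B16-F10 Ctrl (log2 -1.06, SE 0.13, edgeR adjusted p 7.6e-05). Plod3 was at 27.0 and 28.1 CPM against 46.4 and 45.3 CPM (log2 -0.76, edgeR adjusted p 2.9e-04), and Loxl3 at 23.8 and 26.8 CPM (log2 -0.78, edgeR adjusted p 4.7e-04). Loxl2 was higher in B16-F10 Ctrl, at 14.0 and 16.9 CPM against 5.73 and 8.09 CPM (log2 1.14, SE 0.25, edgeR adjusted p 0.0030). The same 4 were called with the labels exchanged and with the doubtful libraries left out. Since aC3 was 1 clone, a clone difference and the loss of Bmal1 cannot be told apart in the next comparison. In the Bmal1-null aC3 EV cells, 1 of 9 tested members differed from YUMM2.1 EV, against 1.75% of all genes. Plod1 was at 40.9 and 39.0 CPM there and at 66.9 and 84.1 CPM in YUMM2.1 EV, without overlap (log2 -0.92, SE 0.13, edgeR adjusted p 0.0079). With the labels exchanged, Plod1 was called (log2 -0.87) and P4ha1 was called lower as well (log2 -0.38), beside 1484 of 15202 genes called. With both doubtful libraries left out, Plod1 was at log2 -0.75 and P4ha1 at log2 -0.41. Without aC3 EV replicate 1 or 2, Plod1 was not called (edgeR adjusted p 0.13 and 0.17), and Loxl3 was called lower without YUMM2.1 EV replicate 1 (log2 -0.48, edgeR adjusted p 0.030).

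In YUMM2.1 with dHLH-Bmal1, members of all 3 families were higher than with EV. Of 8 tested members, 4 rose and none was called lower, whereas 6.51% of the 14323 genes tested were called higher and 13.2% were called in either direction. The members' median log2 fold change was 0.79, against -0.011 over all genes. Loxl4, one of the 4, passed the expression filter only through its dHLH-Bmal1 libraries. Its part in this count and in this median therefore carries no weight. Loxl2 was at 5.73 and 8.09 CPM with EV and at 87.3 and 58.9 CPM with dHLH-Bmal1, so that every dHLH-Bmal1 library lay far above every EV library (log2 3.42, SE 0.26, edgeR adjusted p 0.0015). Loxl4 rose from 1 count in both EV libraries together to 73 counts with dHLH-Bmal1, where it reached 3.88 and 3.80 CPM, a ratio of 82.0 with an exact 95% counting interval of 14.3 to 3283 (edgeR adjusted p 0.0095). Without YUMM2.1 EV replicate 1, Loxl4 was not called (edgeR adjusted p 0.051).

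Among the hydroxylases, Plod2 and P4ha2 rose. Plod2 was at 111 and 106 CPM with EV and at 262 and 249 CPM with dHLH-Bmal1 (log2 1.24, SE 0.12, edgeR adjusted p 0.0021). P4ha2 was at 23.2 and 19.7 CPM with EV and at 76.0 and 79.98 CPM with dHLH-Bmal1 (log2 1.86, SE 0.15, edgeR adjusted p 0.0015). Neither gene's groups overlapped, while P4ha1 and Plod3 were not called: P4ha1 was at 107 and 85.2 CPM against 116 and 97.2 CPM (log2 0.15, edgeR adjusted p 0.62), and Plod3 at 46.4 and 45.3 CPM against 60.4 and 56.0 CPM (log2 0.35, edgeR adjusted p 0.12). Plod1 went the other way, from 66.9 and 84.1 CPM to 50.2 and 52.4 CPM, and missed the threshold (log2 -0.55, SE 0.15, edgeR adjusted p 0.057). Loxl3 was at log2 -0.10 (edgeR adjusted p 0.73).

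The 4 calls held under both treatments of the 2 doubtful libraries. With the labels exchanged, the log2 fold changes were 3.50 for Loxl2, 1.27 for Plod2, 1.78 for P4ha2 and -0.50 for Plod1, which was then called (edgeR adjusted p 0.022). With both left out, they were 3.66, 1.19, 1.73 and -0.39, Plod1 not being called (edgeR adjusted p 0.38). Loxl4, whose single EV count lay in a doubtful library, was called with the labels exchanged (edgeR adjusted p 0.0025) and with both left out (edgeR adjusted p 0.0016). With replicate number as a block, an alternative to the unpaired main fit, 6 members were called. The added ones were Plod1 (log2 -0.55, edgeR adjusted p 0.012) and Plod3 (log2 0.35, edgeR adjusted p 0.047), while the calls over all genes went from 1894 to 3877. No label says that the numbers mark pairs, and the check for pairing included the 2 doubtful libraries. Sox10, a melanocytic transcription factor, moved with the construct as well, from 501 and 484 CPM with EV to 66.2 and 72.9 CPM with dHLH-Bmal1. Its part in these differences was not tested.

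WT-Bmal1 in the same cells gave no called member. Of 8 tested, 0 were called by edgeR, 0 by DESeq2 and 0 had an unadjusted p under 0.05, in a comparison where 0% of all genes were called and 98 of 14323 had an unadjusted p under 0.05. Loxl2 was at 7.26 and 7.68 CPM, Plod2 at 102 and 107 CPM and P4ha2 at 22.3 and 23.7 CPM, each overlapping the EV libraries. With the labels exchanged, members stayed uncalled, the lowest edgeR adjusted p being 0.36 for P4ha1 (log2 -0.29), and with both doubtful libraries left out 0 were called as well.

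**Figure D2:**
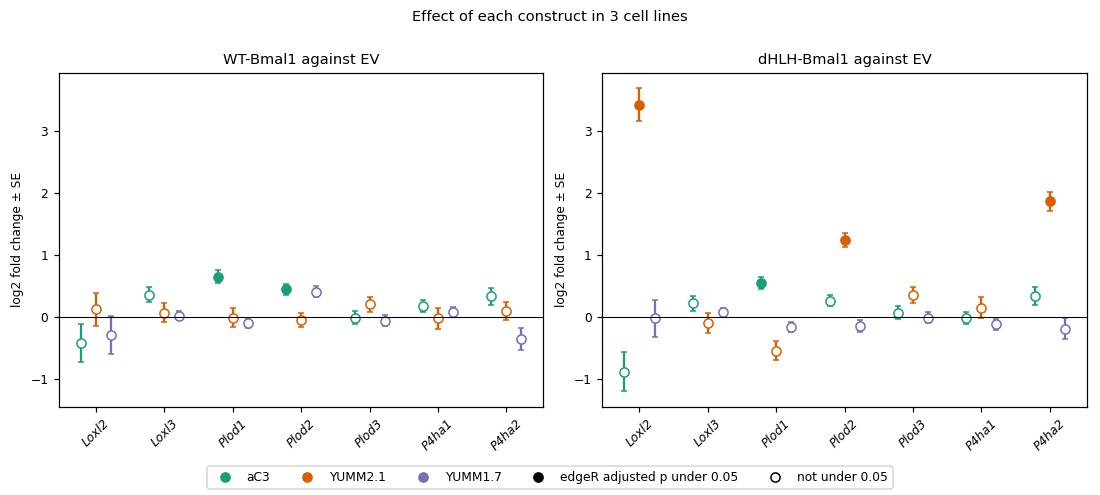
Log2 fold change (vertical axis) with its SE of 7 members for WT-Bmal1 and dHLH-Bmal1 against EV in aC3, YUMM2.1 and YUMM1.7. Filled points had an edgeR adjusted p under 0.05, and Loxl1 and Loxl4 are left out for their low counts. In YUMM2.1, dHLH-Bmal1 places Loxl2 at 3.42, P4ha2 at 1.86 and Plod2 at 1.24, whereas every point of YUMM1.7 is open.

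In the Bmal1-null aC3 cells the lysyl hydroxylases Plod1 and Plod2 rose when WT-Bmal1 was put back. Of 7 tested members, 2 were called with WT-Bmal1, both higher, against 4.92% of the 13790 genes called higher and 11.2% called in either direction. Plod1 rose from 40.9 and 39.0 CPM with EV to 62.7 and 62.7 CPM (log2 0.65, SE 0.10, edgeR adjusted p 9.8e-04). Plod2 rose from 86.3 and 92.3 CPM to 123 and 120 CPM (log2 0.44, SE 0.087, edgeR adjusted p 0.0046). For both genes the 2 groups did not overlap. Plod2 was not called without aC3 EV replicate 1 (edgeR adjusted p 0.090) or without WT-Bmal1 replicate 1 (edgeR adjusted p 0.064).

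With dHLH-Bmal1 in aC3, 1 of 7 tested members was called, against 10.9% of all genes. It was Plod1 again, at 57.4 and 60.4 CPM (log2 0.54, SE 0.10, edgeR adjusted p 0.0040), and it was not called without aC3 EV replicate 2 (edgeR adjusted p 0.072). Since both constructs were set against the same EV libraries, these 2 results share their control. Plod2 was at 103 and 113 CPM (log2 0.26, edgeR adjusted p 0.071), and Loxl2 was at 3.14 and 6.98 CPM against 8.76 and 9.64 CPM with EV (log2 -0.88, SE 0.32, edgeR adjusted p 0.093). Plod2 was called without dHLH-Bmal1 replicate 1 (edgeR adjusted p 0.049) and Loxl2 without dHLH-Bmal1 replicate 2 (log2 -1.57, edgeR adjusted p 0.0056). Set directly against each other, WT-Bmal1 and dHLH-Bmal1 in aC3 differed in 0 of 7 members by edgeR and 0 by DESeq2, none having an unadjusted p under 0.05, while 0.877% of all genes were called. The members' log2 differences there lay between -0.078 and 0.47, and Sox10 stayed high with dHLH-Bmal1 in aC3, at 610 and 551 CPM.

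In YUMM1.7 no member was called with either construct. With WT-Bmal1, 0 of 9 tested were called by edgeR and 0 by DESeq2, 1 had an unadjusted p under 0.05, and 0.138% of all genes were called. That member was Plod2, at 60.3 and 65.6 CPM against 45.1 and 51.0 CPM with EV, without overlap (log2 0.40, SE 0.090, edgeR adjusted p 0.10), and it was called without WT-Bmal1 replicate 1 (log2 0.46, edgeR adjusted p 0.038). With dHLH-Bmal1, 0 of 9 were called by edgeR and 0 by DESeq2, none had an unadjusted p under 0.05, and 0.63% of all genes were called. Loxl2 was at 4.49 and 4.63 CPM against 3.74 and 5.61 CPM (log2 -0.03), P4ha2 at 18.4 and 14.4 CPM against 18.7 and 18.9 CPM (log2 -0.20), and Plod2 at 44.4 and 41.9 CPM (log2 -0.15). Sox10 was at most 1.51 CPM in these cells.

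The response to dHLH-Bmal1 differed between the lines when the difference itself was tested. Taking aC3 minus YUMM2.1, 5 of 9 tested members were called, against 15.5% of all genes. The differences in log2 fold change were -4.29 for Loxl2 (SE 0.45), -0.96 for Plod2 (SE 0.13), -1.51 for P4ha2 (SE 0.23) and 1.11 for Plod1 (SE 0.16), and Loxl4 was the fifth. Plod1 thus differed in the opposite direction to the others, having gone up in aC3 and not in YUMM2.1. Taking YUMM1.7 minus YUMM2.1, 4 of 9 were called, against 12.4% of all genes: Loxl2, Loxl4, Plod2 and P4ha2, each with a smaller response in YUMM1.7. The YUMM2.1 libraries are shared by both tests. Each of these 9 calls held in every alternative run, the exchanged labels and the omission of both doubtful libraries included. For WT-Bmal1, 0 of 9 were called by edgeR and 0 by DESeq2 in either test, where 0.208% and 0% of all genes were called. For aC3 minus YUMM2.1, 2 members had an unadjusted p under 0.05, Plod1 (log2 difference 0.67, edgeR adjusted p 0.11, and 0.82 with edgeR adjusted p 0.035 without YUMM2.1 EV replicate 1) and Plod2 (0.51, edgeR adjusted p 0.14). With the labels exchanged, 3 were called there: Plod1 at 0.58, Plod2 at 0.45 and P4ha1 at 0.47. That exchange also raised the calls over all genes from 32 to 1166 of 15385. For YUMM1.7 minus YUMM2.1, 1 had an unadjusted p under 0.05.

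In B16-F10, knockout of Bmal1 gave no called member by edgeR and 1 by DESeq2. The study used a clone of each kind, so a clone difference and the loss of Bmal1 cannot be told apart. Of 7 tested, 2 had an unadjusted p under 0.05, and 0.44% of all genes were called by edgeR. Plod2 was at 66.2 and 49.9 CPM in KO against 107 and 101 CPM in Ctrl, without overlap (log2 -0.85, SE 0.20, edgeR adjusted p 0.21, DESeq2 adjusted p 0.041). P4ha2 was at 18.3 and 20.04 CPM against 29.1 and 26.2 CPM (log2 -0.54, edgeR adjusted p 0.39), and P4ha1 at 38.2 and 28.3 CPM against 49.4 and 45.1 CPM (log2 -0.51, edgeR adjusted p 0.43). For neither of these did the groups overlap. The KO libraries differed from each other, Plod1 being at 51.2 in 1 of them and 86.2 CPM in the other. Leaving out either left a lone KO library, assumed to vary like the Ctrl libraries, so only effect sizes are given here. Plod2 was then at log2 -1.06 without KO replicate 1 and -0.66 without KO replicate 2.

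The cells with hairpins were a second set of YUMM2.1 libraries with the same constructs. In the study's methods, hairpin virus was added to the existing EV, WT-Bmal1 and dHLH-Bmal1 cells. This set is therefore no independent repeat of the construct step. With the scramble hairpin, dHLH-Bmal1 against EV called 3 of 9 tested members, all higher, against 13.9% of all genes called higher and 26.4% called in either direction. Loxl2 was at 9.37 and 17.1 CPM with EV and at 61.9 and 54.6 CPM with dHLH-Bmal1 (log2 2.14, SE 0.33, edgeR adjusted p 1.0e-04). P4ha2 was at 44.1 and 42.9 CPM against 56.7 and 57.1 CPM (log2 0.39, SE 0.13, edgeR adjusted p 0.037), and Loxl4 at 0.740 and 0.673 against 3.47 and 4.70 CPM (log2 2.50, SE 0.80, edgeR adjusted p 0.028). None of the 3 overlapped, and Plod2 did not overlap either, at 154 and 174 CPM against 194 and 200 CPM, but was not called (log2 0.27, edgeR adjusted p 0.055). The Loxl4 and P4ha2 calls were each lost when any 1 of the 4 libraries was left out (edgeR adjusted p 0.065 to 0.15 for Loxl4 and 0.13 to 0.19 for P4ha2), and Loxl2 was called in all of these. In the EV cells with the scramble hairpin, P4ha2 stood higher than in the EV cells without one (23.2 and 19.7 CPM), and Plod2 likewise. These sets were not compared by a test.

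WT-Bmal1 with the scramble hairpin called 2 of 9 members against the same EV libraries, where 22.3% of all genes were called. Loxl2 was at 36.6 and 27.3 CPM (log2 1.26, SE 0.34, edgeR adjusted p 0.012), between the EV and the dHLH-Bmal1 libraries and overlapping neither. Plod1 was at 74.2 and 76.2 CPM against 54.0 and 50.9 CPM with EV (log2 0.52, SE 0.13, edgeR adjusted p 0.0070). The Loxl2 call was lost without EV shNC replicate 1 (log2 0.90, edgeR adjusted p 0.15) or WT-Bmal1 shNC replicate 1 (log2 1.04, edgeR adjusted p 0.084). The Plod1 call was lost without replicate 2 of EV shNC (edgeR adjusted p 0.081) or of WT-Bmal1 shNC (edgeR adjusted p 0.052). Between dHLH-Bmal1 and WT-Bmal1 with shNC, 1 of 9 members was called, against 1.91% of all genes. It was Plod1, at 48.4 and 54.2 CPM with dHLH-Bmal1 (log2 -0.55, SE 0.13, edgeR adjusted p 0.032), and without any 1 of the 4 libraries it was not called (edgeR adjusted p 0.10 to 0.38). Sox10 was at 330 and 334 CPM with EV, 98.7 and 99.8 CPM with WT-Bmal1 and 22.7 and 26.1 CPM with dHLH-Bmal1. Among these shNC groups it was lower where Loxl2 was higher, and its part was not tested. YUMM1.7 did not follow this order, having little Sox10 and the lowest Loxl2 group means (3.76 to 4.68 CPM).

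Both Myh9 hairpins lowered Myh9 in every construct, shMyh9#2 by log2 -1.51 with EV, -2.04 with WT-Bmal1 and -1.69 with dHLH-Bmal1, and shMyh9#4 by -0.52, -0.93 and -0.42. The member that responded most often was Plod1, called in 3 of 6 comparisons and in both directions. With EV, shMyh9#2 called 1 of 9 members, against 6.65% of all genes: Plod1 rose from 54.0 and 50.9 CPM to 75.6 and 67.8 CPM (log2 0.46, SE 0.13, edgeR adjusted p 0.043). With WT-Bmal1, shMyh9#2 called 2 of 9, both lower, against 2.41% of all genes called lower and 4.76% called in either direction. Plod1 fell from 74.2 and 76.2 CPM to 46.9 and 62.1 CPM (log2 -0.47, SE 0.13, edgeR adjusted p 0.040), and Plod2 from 181 and 164 CPM to 132 and 139 CPM (log2 -0.36, SE 0.10, edgeR adjusted p 0.046). No groups overlapped in these 3 results. The difference in Plod1 between the constructs, WT-Bmal1 minus EV, was itself called at log2 -0.93 (SE 0.18, edgeR adjusted p 0.0060), the only one of 9 members, against 5.18% of all genes. For dHLH-Bmal1 minus EV, 0 of 9 were called by edgeR, 0 by DESeq2 and 0 at an unadjusted p under 0.05, against 3.29% of all genes.

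The pairwise shMyh9#2 calls rested on few libraries. Plod1 in EV cells was not called when any 1 of the 4 libraries was left out (edgeR adjusted p 0.083 to 0.32), and Plod2 in WT-Bmal1 cells likewise (edgeR adjusted p 0.077 to 0.29). Plod1 in WT-Bmal1 cells was still called without WT-Bmal1 shMyh9#2 replicate 2, and not without either shNC library (edgeR adjusted p 0.14 and 0.20) or without shMyh9#2 replicate 1 (edgeR adjusted p 0.42).

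With dHLH-Bmal1, shMyh9#4 called 2 of 9 members in opposite directions, against 15.1% of all genes. Its libraries held 3643332 and 6001340 counts, the first being the lowest total of the series, against 14718654 and 6347481 with shNC. Loxl2 rested on 121 counts in each shMyh9#4 library, and the part of depth in these calls was not tested. Plod1 rose from 48.4 and 54.2 CPM to 84.3 and 84.4 CPM, without overlap (log2 0.74, SE 0.13, edgeR adjusted p 0.0018). Loxl2 fell from 61.9 and 54.6 CPM to 34.1 and 21.02 CPM, without overlap (log2 -1.09, SE 0.33, edgeR adjusted p 0.033), though it was not called without either dHLH-Bmal1 shNC library (edgeR adjusted p 0.17 and 0.072) or without shMyh9#4 replicate 2 (edgeR adjusted p 0.33). P4ha2 was at 40.6 and 44.0 CPM against 56.7 and 57.1 CPM (log2 -0.40, edgeR adjusted p 0.058), and Loxl3 at 25.1 and 19.5 CPM against 35.6 and 36.5 CPM (log2 -0.69, edgeR adjusted p 0.061). The stronger knockdown, shMyh9#2, called 0 of 9 members in the dHLH-Bmal1 cells by edgeR and 0 by DESeq2, with 0 at an unadjusted p under 0.05 and 0.559% of all genes called. Loxl2 was at 31.8 and 54.5 CPM there, and Plod1 at 55.5 and 54.2 CPM. Hairpin shMyh9#4 called 0 of 9 by edgeR and 0 by DESeq2 with EV (1.71% of all genes, no member at an unadjusted p under 0.05) and with WT-Bmal1 (0.236% of all genes, 1 member, Plod2 at log2 -0.22). In the dHLH-Bmal1 cells Sox10 was at 45.9 and 44.5 CPM with shMyh9#4, above its shNC level, and at 14.4 and 12.3 CPM with shMyh9#2, below it.

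**Figure D3:**
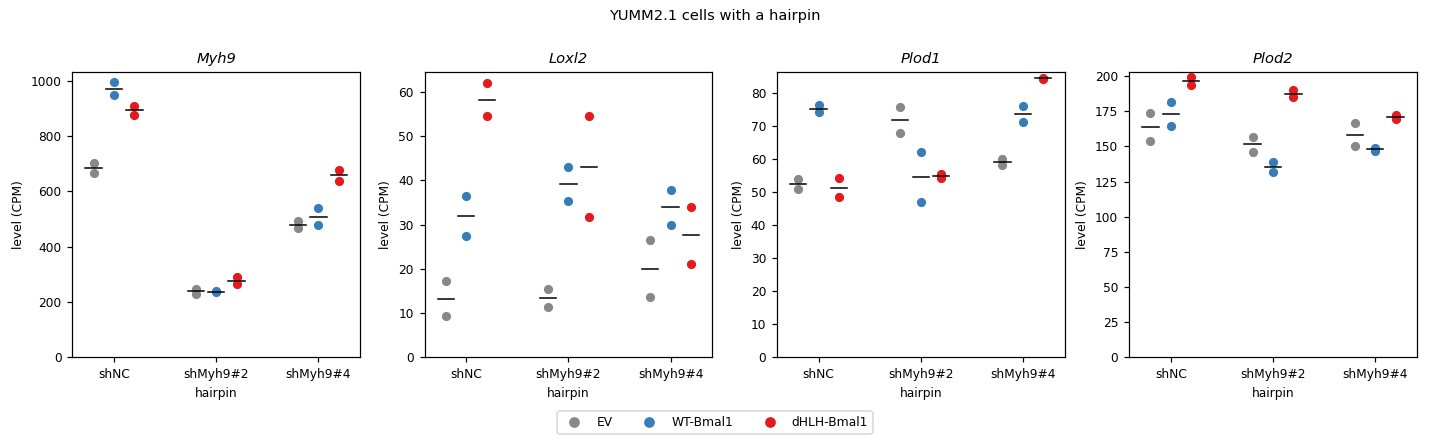
Level in CPM (vertical axes, linear) of Myh9, Loxl2, Plod1 and Plod2 in the 18 YUMM2.1 libraries with a hairpin, by construct and hairpin, with each library as a point and the mean as a bar. Plod1 stands at 84.3 and 84.4 CPM in the dHLH-Bmal1 shMyh9#4 cells and at 48.4 and 54.2 CPM in their shNC controls.

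Other genes of collagen modification and processing, a list of 25, gave context. With dHLH-Bmal1 in YUMM2.1, 5 of 20 tested were called, 4 higher and 1 lower, against 13.2% of all genes called in either direction, and the list's median log2 fold change was 0.37, against -0.011 over all genes. P3h4, which works in a complex with lysyl hydroxylase 1, rose by log2 1.54 (SE 0.32, edgeR adjusted p 0.024) and the zinc transporter gene Slc39a13 by 1.22 (SE 0.20, edgeR adjusted p 0.011). Fkbp10, a prolyl isomerase needed for lysyl hydroxylase 2 (log2 1.09), and Pcolce2, an enhancer of procollagen processing (log2 0.92), were the others called higher and are named after their values were seen, and Fkbp14, another prolyl isomerase of the endoplasmic reticulum, was lower (log2 -1.17, SE 0.27, edgeR adjusted p 0.036). In aC3, by contrast in sign, Fkbp14 rose with WT-Bmal1 (log2 0.52, edgeR adjusted p 0.048) and with dHLH-Bmal1 (log2 0.61, edgeR adjusted p 0.023).

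In the cells with the scramble hairpin, 9 of 21 tested were called with WT-Bmal1 (6 higher, 3 lower) and 10 of 21 with dHLH-Bmal1 (6 higher, 4 lower), both against the same EV libraries and beside 22.3% and 26.4% of all genes. Pcolce2, higher with dHLH-Bmal1 in the cells without a hairpin, fell here with both constructs, from 23.4 CPM with EV to 11.8 CPM with WT-Bmal1 (log2 -0.99, edgeR adjusted p 0.0024) and 12.6 CPM with dHLH-Bmal1 (log2 -0.90, edgeR adjusted p 0.0034). P3h4 rose from 23.0 CPM with EV to 76.3 CPM with WT-Bmal1 (log2 1.73) and 71.0 CPM with dHLH-Bmal1 (log2 1.63). Bmp1, the procollagen C-proteinase, rose by log2 1.46 and 1.33. Fkbp10 rose by log2 1.44 with WT-Bmal1 and Pcolce, the enhancer of that proteinase, by log2 1.08 with dHLH-Bmal1. Myh9 hairpins in EV cells raised P3h4 by log2 0.83 (shMyh9#2) and 0.80 (shMyh9#4), Pcolce by 0.86 and 0.62, and Fkbp10 by 0.68 and 0.67. In dHLH-Bmal1 cells, shMyh9#4 raised Pcolce2 (log2 1.58) and lowered Crtap, a partner of prolyl 3-hydroxylase (log2 -1.43), and Serpinh1, the collagen chaperone Hsp47 (log2 -0.96). Between lines, P4ha3, the third catalytic subunit of prolyl 4-hydroxylase, was at 18.7 CPM in YUMM1.7 EV and 2.50 CPM in YUMM2.1 EV (log2 2.88), and Adamts2, a procollagen N-proteinase, was at 19.2 CPM in YUMM1.7 EV and had at most 2 counts in a YUMM2.1 EV library.

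Across the 20 group means of log2 CPM, Plod2 and P4ha2 followed each other most closely among the members, with a Pearson r of 0.93. Loxl2 followed P4ha2 at 0.86 and Plod2 at 0.77, and Loxl1 followed Loxl3 at 0.80. P4ha1 and P4ha2 had r of 0.30, and Plod1 and Plod2 -0.041. These are descriptions over 20 groups that share lines, vectors and controls. Among 10659 genes with a mean of at least 5 CPM, the 3 most like Plod2 were Higd1a (0.95), Fam162a (0.95) and Pgf (0.95), and the 3 most like P4ha2 were Bnip3 (0.96), Fam162a (0.94) and Higd1a (0.92). For Loxl2 they were Ptprb (0.91), E2f2 (0.91) and Lmo7 (0.91). Loxl1, high in a single line, was matched by Gm12606 (0.97), Cd34 (0.97) and Bcl6b (0.96).

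**Figure D4:**
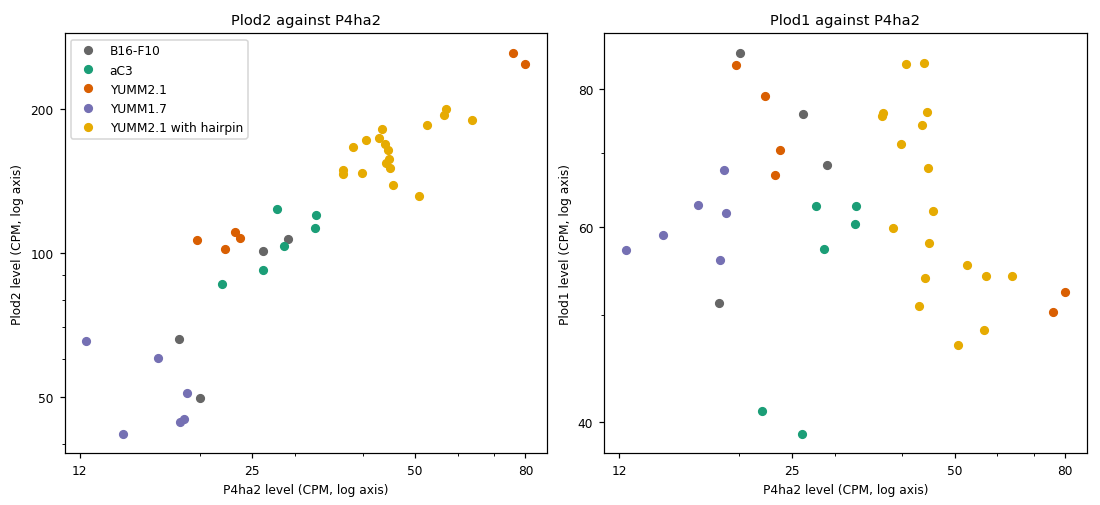
Level in CPM on log axes of Plod2 and of Plod1 (vertical) against P4ha2 (horizontal) in all 40 libraries, marked by cell line and set. Plod2 and P4ha2 rise together from YUMM1.7 to YUMM2.1 dHLH-Bmal1, while Plod1 has no such order with P4ha2.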

How the data were processed

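The authors deposited 1 table of whole-number gene counts (bowtie2 and RSEM in the study's methods, mm10 per the submitters' processing notes, with no strand setting or annotation release given in the sources used here) for 40 QuantSeq FWD libraries, all columns of which were used. Groups came from the labels. Counts were fitted with edgeR 4.0.16 (limma 3.58.1, R 4.3.3) by set: TMM factors, filterByExpr and the quasi-likelihood test, adjusted over all genes of a fit. Differences between effects were interaction contrasts. CPM was computed from library totals multiplied by TMM factors fitted over all 40 libraries, and counting intervals were exact at 95%. Named genes were the 10 members in every comparison, the 3 called genes of the other list with the largest change per comparison (those without overlap), and the 3 genes most like each member above 5 CPM and 4-fold range. Members and lists were chosen with earlier results of these data known. Replicate numbers were checked for pairing: in YUMM2.1, libraries with the same number deviated together from their group means in all 3 group pairs (r 0.133 to 0.297). The check included the 2 doubtful libraries and was not repeated with their labels exchanged or with both left out. The main fits used no pairing, which entered only as the replicate block among the alternatives. Alternatives were DESeq2 1.42.0, its size factors, no filter, a replicate block, 1 fit of all libraries, leaving out each library, and exchanging or omitting the 2 doubtful libraries. The omission was chosen after the data were seen. The steps were tested on simulated data.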

Additional observations from a re-analysis of the deposited data

Results flagged for a closer look

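The response to a construct or hairpin differed between lines or constructs, by a test of the difference itself, for 10 results. For dHLH-Bmal1 against EV, aC3 minus YUMM2.1, the difference in log2 fold change was -4.29 for Loxl2 (SE 0.45, edgeR adjusted p 1.1e-05), -8.41 for Loxl4 (SE 1.7, edgeR adjusted p 0.0031), 1.11 for Plod1 (SE 0.16, edgeR adjusted p 2.1e-04), -0.96 for Plod2 (SE 0.13, edgeR adjusted p 1.1e-04) and -1.51 for P4ha2 (SE 0.23, edgeR adjusted p 3.3e-04). For YUMM1.7 minus YUMM2.1 it was -3.44 for Loxl2 (SE 0.47, edgeR adjusted p 2.3e-04), -6.08 for Loxl4 (SE 1.2, edgeR adjusted p 0.0046), -1.38 for Plod2 (SE 0.13, edgeR adjusted p 1.5e-05) and -2.05 for P4ha2 (SE 0.24, edgeR adjusted p 6.9e-05). The Loxl4 values are fitted against 1 count in YUMM2.1 EV and are no measured folds. For shMyh9#2 against shNC, WT-Bmal1 minus EV, it was -0.93 for Plod1 (SE 0.18, edgeR adjusted p 0.0060).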

How the results depend on the processing

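Of 170 pairwise member results tested, 27 were called as reported and 14 of them under every alternative, all 10 called differences between effects were called in every alternative, and 0 results reversed. The numbers of members called that moved by over 1.5 times were these. With the DESeq2 Wald test, B16-F10 KO went from 0 to 1. With no filter, B16-F10 KO went to 1, aC3 dHLH-Bmal1 to 2, YUMM1.7 WT-Bmal1 to 1, EV shMyh9#2 to 0, WT-Bmal1 shNC against EV shNC to 4, dHLH-Bmal1 against WT-Bmal1 with shNC to 2, the shMyh9#2 effect in WT-Bmal1 minus EV to 2, and aC3 EV against YUMM2.1 EV to 2. With the replicate block, which pairs libraries by number, aC3 dHLH-Bmal1 went to 2, EV shMyh9#2 to 0, WT-Bmal1 shMyh9#2 to 1 and, within 1.5 times, YUMM2.1 dHLH-Bmal1 from 4 to 6. Loxl3 in aC3 WT-Bmal1 was called too (log2 0.36), and the block changed no other call. Outside YUMM2.1 same-numbered libraries correlated at a mean r of 0.087 in B16-F10, 0.027 in aC3, 0.0054 in YUMM1.7 and -0.0042 with hairpins. Whether they shared more than a number is not given in the sources used here. In 1 fit of all 40 libraries, B16-F10 KO went to 2, aC3 dHLH-Bmal1, EV shMyh9#2, WT-Bmal1 shMyh9#2 and dHLH-Bmal1 against WT-Bmal1 with shNC to 0, and WT-Bmal1 shNC to 4. With the labels exchanged, aC3 EV against YUMM2.1 EV went to 2 and the WT-Bmal1 effect in aC3 minus YUMM2.1 to 3. With both doubtful libraries left out, aC3 EV against YUMM2.1 EV went to 2. The cause was not tested for any of these. Changes within 1.5 times were to 5 for YUMM2.1 dHLH-Bmal1 (DESeq2, no filter, 1 fit and labels exchanged), YUMM1.7 EV against YUMM2.1 EV (no filter, labels exchanged and both left out) and B16-F10 Ctrl (1 fit), to 3 for WT-Bmal1 shNC (DESeq2) and dHLH-Bmal1 shMyh9#4 (no filter and 1 fit), and to 2 (DESeq2) and 4 (1 fit) for dHLH-Bmal1 shNC.

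Leaving out each library in turn, with a lone library assumed to vary like the other groups, the members called ranged from 0 to 4 for B16-F10 KO, 1 to 2 for aC3 WT-Bmal1, 0 to 2 for aC3 dHLH-Bmal1, 3 to 4 for YUMM2.1 dHLH-Bmal1, 0 to 1 for YUMM1.7 WT-Bmal1, 0 to 0 for EV shMyh9#2, 0 to 1 for WT-Bmal1 shMyh9#2, 1 to 2 for dHLH-Bmal1 shMyh9#4, 1 to 2 for WT-Bmal1 shNC, 1 to 1 for dHLH-Bmal1 shNC, 0 to 0 for dHLH-Bmal1 against WT-Bmal1 with shNC, 4 to 6 for YUMM1.7 EV, 0 to 2 for aC3 EV and 4 to 5 for B16-F10 Ctrl against YUMM2.1 EV, and 0 to 1 for the WT-Bmal1 effect in aC3 minus YUMM2.1.

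For the fits that left out a library, the share of all genes called is not given here, so their member counts cannot be set against it. Genes called over the whole table moved more. Over the alternatives other than leaving out a library, the main count and its range were 64 (64 to 1952) for B16-F10 KO, 1544 (391 to 2000) for aC3 WT-Bmal1, 1501 (160 to 1993) for aC3 dHLH-Bmal1, 121 (18 to 396) between them, 0 (0 to 101) for YUMM2.1 WT-Bmal1, 1894 (1767 to 4114) for YUMM2.1 dHLH-Bmal1, 19 (0 to 246) and 87 (4 to 331) for YUMM1.7 WT-Bmal1 and dHLH-Bmal1, 988 (856 to 1542) for EV shMyh9#2, 254 (118 to 430) for EV shMyh9#4, 35 (20 to 305) for WT-Bmal1 shMyh9#4, 83 (73 to 269) for dHLH-Bmal1 shMyh9#2, 284 (246 to 559) for dHLH-Bmal1 against WT-Bmal1 with shNC and 265 (188 to 1484) for aC3 EV against YUMM2.1 EV. For the differences between effects they were 32 (28 to 1166) and 2390 (1920 to 3629) for WT-Bmal1 and dHLH-Bmal1 in aC3 minus YUMM2.1, 0 (0 to 193) and 1912 (1565 to 3162) in YUMM1.7 minus YUMM2.1, and 769 (576 to 1313) and 489 (347 to 950) for shMyh9#2 in WT-Bmal1 and dHLH-Bmal1 minus EV. At 2 libraries a group and the depth given, Lox, Loxl4 and, outside YUMM1.7, Loxl1 lay near the limit of detection.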
